A study of Mus musculus with 14 samples.

Results

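Among the mouse hindbrain cells sequenced at E14.5, 1317 were caudal neurons that carried transcripts of the Hox genes of paralog groups 7 and 8. They were chosen from the raw counts of unique molecular identifiers (UMIs, each standing for 1 captured transcript). A cell was taken when it had at least 1000 genes, under 10% mitochondrial UMIs, at least 3 UMIs of Hoxa7, Hoxb8 and Hoxc8 added together, at least 5 UMIs of the neuronal microtubule gene Mapt, and none of Foxb1 or Gad2. The 1317 Hox7-8 neurons were drawn from 49696 cells that passed the first 2 limits, 60732 barcodes of the 6 E14.5 libraries and 150188 barcodes of all 14 libraries of the series. Because measured values chose the cells, the levels of these 6 genes are given as a description and carry no test.

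The study asked how the transcription factor Atoh1 shapes neurons that arise from the rhombic lip, and compared embryos with a phosphosite mutation of Atoh1 with their littermates. Control embryos were Atoh1Cre/+; Rosa lsl-tdTomato/+ and mutant embryos, written Atoh1S193A/-, were Atoh1Cre/S193A; Rosa lsl-tdTomato/+, 3 embryos each, all on C57BL/6J. The Cre allele replaces the Atoh1 coding region, so the controls also carried a single functional copy, and the mutants had no wild-type copy. Whole hindbrains were dissociated, TdTom-positive and DAPI-negative cells were sorted, and each embryo gave 1 library. The label marks cells in which Cre had acted at any earlier time, and its transcript is read through WPRE, a viral sequence element at the end of the reporter. Since S193A is a missense change, the Atoh1 count does not check the genotype labels.

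Hox genes lie in 4 clusters and are expressed in nested domains along the body axis, with higher paralog numbers starting more caudally. In the hindbrain the anterior boundaries of the low paralog groups lie at rhombomeres, and higher groups begin in the most caudal hindbrain and the spinal cord. Neurons from the dorsal neural tube keep such a code after they leave the progenitor zone, and the Atoh1 lineage there includes the dI1 class and the neurons that migrate to precerebellar nuclei.

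The Hox profile of the chosen cells reached beyond the genes of the rule. Levels are given as CPM, the UMIs of a gene per 1000000 UMIs summed over the cells of a population in a library. Hoxc6, which the rule did not use, was measured at 286, 408 and 381 CPM in control replicates 1, 2 and 3, and at 285, 80.7 and 335 in Atoh1S193A/- replicates 1, 2 and 3. It was found in 951 of 1317 cells (72.2%). For comparison, Hox4-5 neurons, with at least 3 UMIs of Hoxb4 and Hoxb5 and none of Hoxa7, Hoxb8 or Hoxc8 (4226 cells, same limits otherwise), held Hoxc6 at 7.72 ± 3.75 CPM (SD, n = 6), and every library of the Hox7-8 neurons lay above every library of theirs. Hoxb7 was at 239.5 ± 51.0 CPM (SD, n = 6) in Hox7-8 neurons and 3.03 ± 1.17 in Hox4-5 neurons. Hoxb9 had 39.1 ± 22.0 CPM (SD, n = 6) and Hoxa9 24.5 ± 21.6, whereas of the genes of groups 10 to 13 only Hoxa10 (8 UMIs, in control replicate 2) and Hoxd13 (1, 2 and 1 UMIs in control replicates 1, 2 and 3) were counted in any of them. More rostral genes were retained: Hoxa5 stood at 680 ± 453 CPM (SD, n = 6), Hoxc4 at 351 ± 36.6 and Hoxb4 at 134 ± 65.6. Atoh1S193A/- replicate 2, with 9 cells, had the highest level of Hoxa5 and Hoxb4 (334 and 55 of 210594 UMIs) and raised both means. Hoxa2 was at 30.4 ± 9.52 against 126 ± 23.2 CPM in the Hox4-5 neurons.

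**Figure D1:**
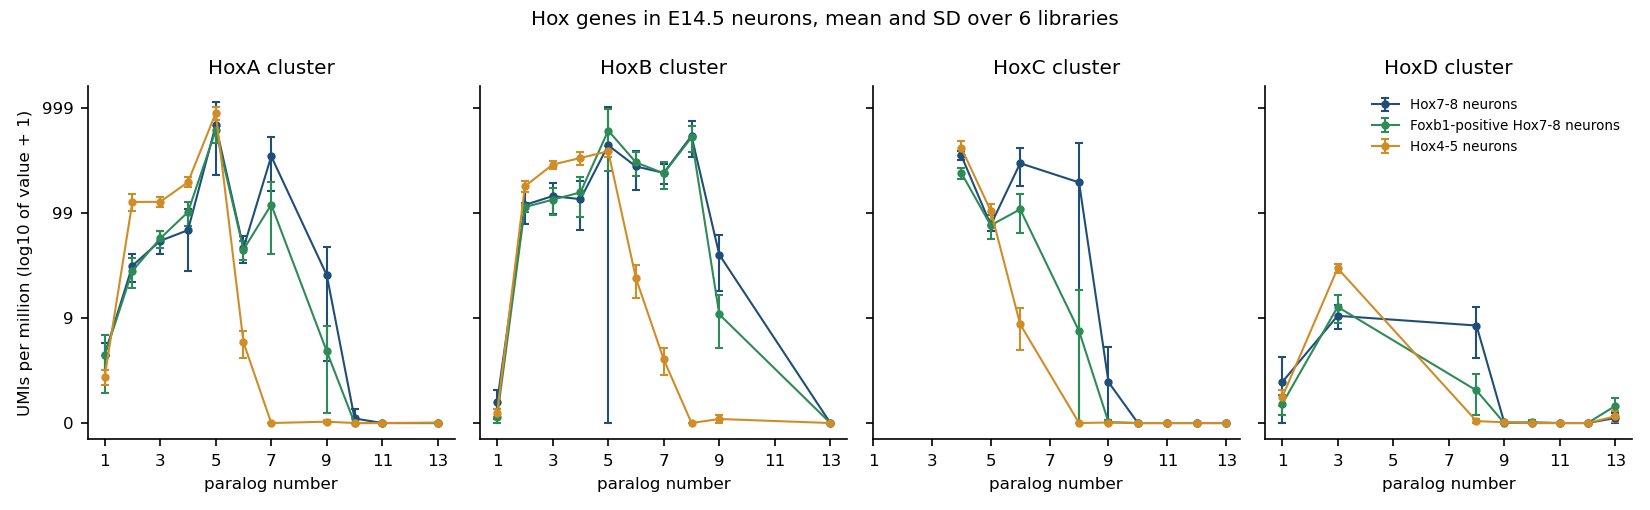
CPM of each Hox gene (vertical axis, log10 of value + 1) against its paralog number in Hox7-8 neurons, Foxb1-positive Hox7-8 neurons and Hox4-5 neurons, 1 panel per Hox cluster; points are means and bars SDs over 6 libraries, and a bar that passes below 0 is drawn to 0. In the Hox7-8 neurons Hoxa7, Hoxb7, Hoxb8 and Hoxc8 lie above the genes of paralog 9 and over in their clusters, and Hoxa6 lies below Hoxa5 and Hoxa7. The Hox4-5 neurons fall after paralog 5 in the HoxA, HoxB and HoxC panels. Hoxc8 had 0 to 3598 and Hoxd8 0 to 132 UMIs per library of Hox7-8 neurons.

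The 3 Hox genes of the rule contributed unequally. Of the 1317 cells, 1217 had a UMI of Hoxb8 (chr11:96281905-96285315, GRCm38, HoxB cluster), 847 of Hoxa7 (chr6:52214491-52221854, HoxA) and 182 of Hoxc8 (chr15:102990607-102994111, HoxC), and 140 had all of them. The highest paralog with a UMI was group 8 in 811 cells, group 9 in 453, group 7 in 47 and group 10 or over in 6. A UMI of Hoxb4 or Hoxb5 was found in 1130 of them (85.8%, with 79.9% to 100% in the 6 libraries), against 14.8% (9.91% to 22.0%) of the kept cells with En2 that are described next as a gauge of free RNA, at like median depths.

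Hoxc6 was less often found near the edge of the rule. Cells just inside, with exactly 3 UMIs of the 3 genes, numbered 86, and 61.6% of them had Hoxc6. Just outside, 173 cells with 2 UMIs had Hoxc6 in 46.8%, and 1035 cells with 1 UMI in 13.53%. Most members were far from the limit, as 1150 had 5 or more UMIs, of which 73.8% had Hoxc6. Free RNA was gauged in 8510 kept cells with at least 2 UMIs of En2, a gene of the isthmus and cerebellum that caudal neurons should lack. Of those, 5.99% had a UMI of the 3 Hox genes, 1.72% had 3 or more, and 2.90% had Hoxc6, at a median of 18856 UMIs per cell against 19160 in the Hox7-8 neurons. Control replicate 2, which also held the most Hox7-8 neurons, gave 12.7%, 5.78% and 7.57%. In the other 5 libraries these shares ran from 0.545% to 7.14%, from 0.121% to 1.72% and from 0.364% to 3.17%, and without control replicate 2 the pooled values were 4.62%, 0.879% and 1.94%. The gauge cells were not cleared of doublets and included 54 Hox7-8 neurons, 31 of them in control replicate 2. Their shares are therefore not a measure of free RNA alone. Libraries shared 15 to 34 cell barcodes by pairs, and no member barcode was shared.

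Library by library, the neurons were unevenly spread. There were 199, 570 and 164 in control replicates 1, 2 and 3, and 196, 9 and 179 in Atoh1S193A/- replicates 1, 2 and 3. The 9 cells of Atoh1S193A/- replicate 2 stood apart: they had 0 UMIs of Hoxa7 and of Hoxc8 among 210594, which allows up to 14.2 CPM for each by counting error, while Hoxb5 reached 1610 CPM against 175 to 241 in the other 5 libraries. Over all kept cells of that library Hoxa7 was at 0.08 CPM and Hoxb8 at 2.44, and the ranges of the other 5 were 13.1 to 62.9 and 27.7 to 106. The depth of the library was not low, with a median of 17033.5 UMIs per barcode against 14225 to 18507 in the others. How far caudally each hindbrain was cut is not given by the labels, and its part in these counts was not tested.

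Hoxa7 ran from 347 to 529 CPM in the 5 libraries with over 100 Hox7-8 neurons. Hoxb8 was measured at 703, 448 and 424 CPM in the controls and 790, 242 and 632 in the Atoh1S193A/- libraries. Hoxc8 varied most, from 0.98 in control replicate 1 through 63.5 in Atoh1S193A/- replicate 1, 107 in control replicate 3 and 285 in control replicate 2 to 707 in Atoh1S193A/- replicate 3. The genotypes overlapped in each of these genes.

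**Figure D2:**
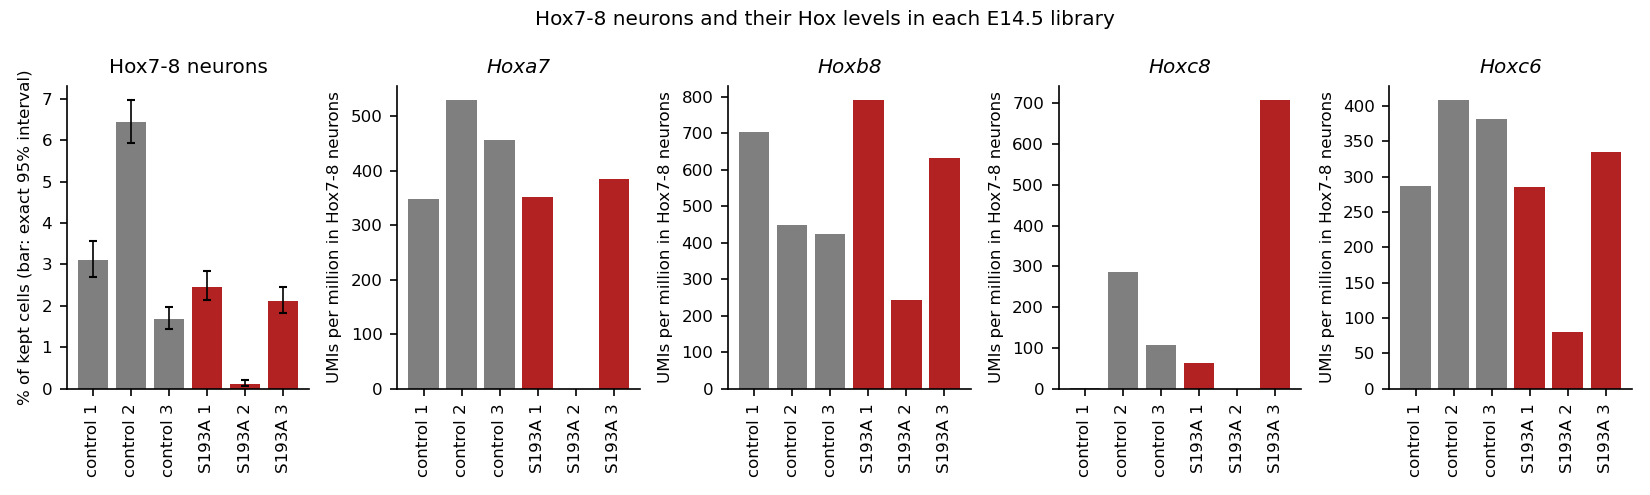
Left, Hox7-8 neurons as a percentage of kept cells in each E14.5 library with exact 95% binomial intervals; the other panels give CPM of Hoxa7, Hoxb8, Hoxc8 and Hoxc6 summed over the Hox7-8 neurons of each library. Control libraries are grey and Atoh1S193A/- libraries red, and Atoh1S193A/- replicate 2 is lowest in every panel, level with 0 for Hoxa7 and Hoxc8.

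Hox7-8 neurons made up 3.11% (exact 95% interval 2.69 to 3.56), 6.43% (5.93 to 6.97) and 1.69% (1.44 to 1.96) of the kept cells of control replicates 1, 2 and 3. In Atoh1S193A/- replicates 1, 2 and 3 they made up 2.47% (2.14 to 2.83), 0.108% (0.0496 to 0.206) and 2.11% (1.82 to 2.44). These intervals cover counting error only. Control libraries averaged 3.74% ± 2.44 and Atoh1S193A/- libraries 1.56% ± 1.27 (SD over 3 embryos each), a difference of -2.18 percentage points that was within the spread between embryos (exact two-sided permutation test, p = 0.3, where 0.1 is the smallest p that 3 against 3 allows). The ranges overlapped, since Atoh1S193A/- replicates 1 and 3 lay above control replicate 3. Without Atoh1S193A/- replicate 2 the difference was -1.45 points (exact permutation p = 0.7), and without control replicate 2, which held the most Hox7-8 neurons, it was -0.834 (exact permutation p = 0.6). Without control replicate 3 it was -3.21 points, and the genotypes no longer overlapped (exact permutation p = 0.1, the smallest that 2 against 3 allows). Headers name Cell Ranger 3.1.0 for control replicates 1 and 2 and 5.0.1 for the other libraries, and among the latter the difference was -0.126 points with a single control (exact permutation p = 1). Fewer Hox7-8 neurons and more of the other sorted cells cannot be told apart in such a share.

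The neurons came from more than 1 class and were glutamatergic as a whole. The rule had removed cells with Gad2, which favored glutamatergic neurons, so their transmitter type is given as a description. Slc17a6, the vesicular glutamate transporter of these regions, was at 218 ± 8.77 CPM (SD, n = 6), with the libraries between 207 and 231. When the 1317 cells were clustered without the genes of the rule, 12 clusters of 52 to 157 cells were found, and the genes below define them and so are given without a test.

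Clusters 2 and 10 (148 and 72 cells) were dI5-like. The dI5 class is a group of dorsal excitatory neurons that express Tlx3, Lmx1b, Lbx1 and Prrxl1 (also named Drgx), and it does not arise from Atoh1-expressing progenitors. Tlx3 stood at 562 and 679 CPM in the 2 clusters, Lmx1b at 138 and 200.5, Lbx1 at 104 and 195, and Prrxl1 at 243 and 489, while Lhx2 was at 2.35 and 8.94. Cluster 10 was also led by the neuropeptide genes Cck (1477 CPM, found in 34.7% of its cells) and Grp (511). Cluster 12 (52 cells) was dI4/inhibitory-like, with Pax2 at 137 CPM, Lhx1 at 568, the GABA synthesis gene Gad1 at 89.5 and the vesicular inhibitory transporter Slc32a1 at 101, although the rule had removed cells with Gad2. Its Slc17a6 was 22.4 CPM against 120 to 301 in the other 11 clusters.

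The other clusters were left unnamed, since none had more than 1 gene of a class list of neurons among its 10 leading genes. Cluster 4 (138 cells) was led by Sox6 (189.96 CPM against a mean of 3.71 in the other clusters), the prokineticin receptor gene Prokr2 (119 against 8.59) and S100a10 (385 against 33.8), and had the highest level of the dI1 factor Lhx2, 1100.2 CPM. Cluster 5 (138 cells) was led by the vesicular acetylcholine transporter Slc18a3 (33.1 against 0.92) and the tachykinin gene Tac1 (463 against 25.2), and it held Lhx1 at 354, Barhl1 at 297 and Barhl2 at 195 CPM, with Isl1 at 2.62 and Slc5a7 at 0. In cluster 6 (127 cells) Gbx2 (159 against 13.7), Olig3 (441 against 40.2) and Pou4f1 (770 against 97.0) led. Cluster 7 (111 cells) was led by Coch (75.6 against 3.73) and Tgfb2 (300.04 against 26.4), with Zfhx3 at 1257.5 CPM against 216. Cluster 11 (55 cells) had Nr4a2 (412 against 22.0), the highest Barhl2 (289 CPM) and the highest Hoxa9 (351).

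Cluster 8 (97 cells) was led by Robo3 and Nhlh1, and 15.5% of its cells were among the 7.5% of highest doublet scores. The axon guidance receptor Robo3, which lets commissural axons approach and cross the midline, was at 516 CPM in it against a mean of 13.1 in the other clusters, the early neuronal factor Nhlh1 at 159.9 against 6.37, and Nfib at 4030 against 341. Cluster 1 (157 cells) was led by Dlk1 (317 against 53.6), Npas3 (91.1 against 22.5) and Pcp4 (1057 against 306). Clusters 3 and 9 (144 and 78 cells) gave signs of mixed droplets. In cluster 9, 92.3% of the cells were among the 7.5% of highest doublet scores of their library, the median cell had 34345 UMIs, and the choroid plexus gene Ttr (8652 CPM) and the mitosis gene Top2a (186) led. In cluster 3 that share was 36.8%, with Pax5 (68.7 against 9.02) and the Iroquois gene Irx5 (77.2 against 11.9) among the leading genes.

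Members also differed in their Hox code along these clusters. Hoxb8 was at 2058 and 1457 CPM in the dI5-like clusters 2 and 10 and 1541 in the inhibitory-like cluster 12, where Hoxc8 was at 0.47, 0 and 0 and Hoxc6 at 81.7, 8.94 and 54.6. Clusters 1, 6 and 11 had Hoxa7 at 1045, 1227 and 1069 CPM and Hoxc8 at 857, 374 and 361. Cluster 5 held Hoxc8 (603) and Hoxc6 (589) with little Hoxb8 (80.9). In clusters 4 and 7 Hoxb8 was at 481 in both, and Hoxc8 at 0.92 and 5.10 CPM. Clusters 2, 10 and 12 made up 33.7%, 7.19% and 14.02% of the Hox7-8 neurons of control replicates 1, 2 and 3, and 41.3%, 0% and 33.5% in Atoh1S193A/- replicates 1, 2 and 3, so the mixture of classes was not the same from library to library. All 9 cells of Atoh1S193A/- replicate 2 fell in clusters 4 and 7.

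**Figure D3:**
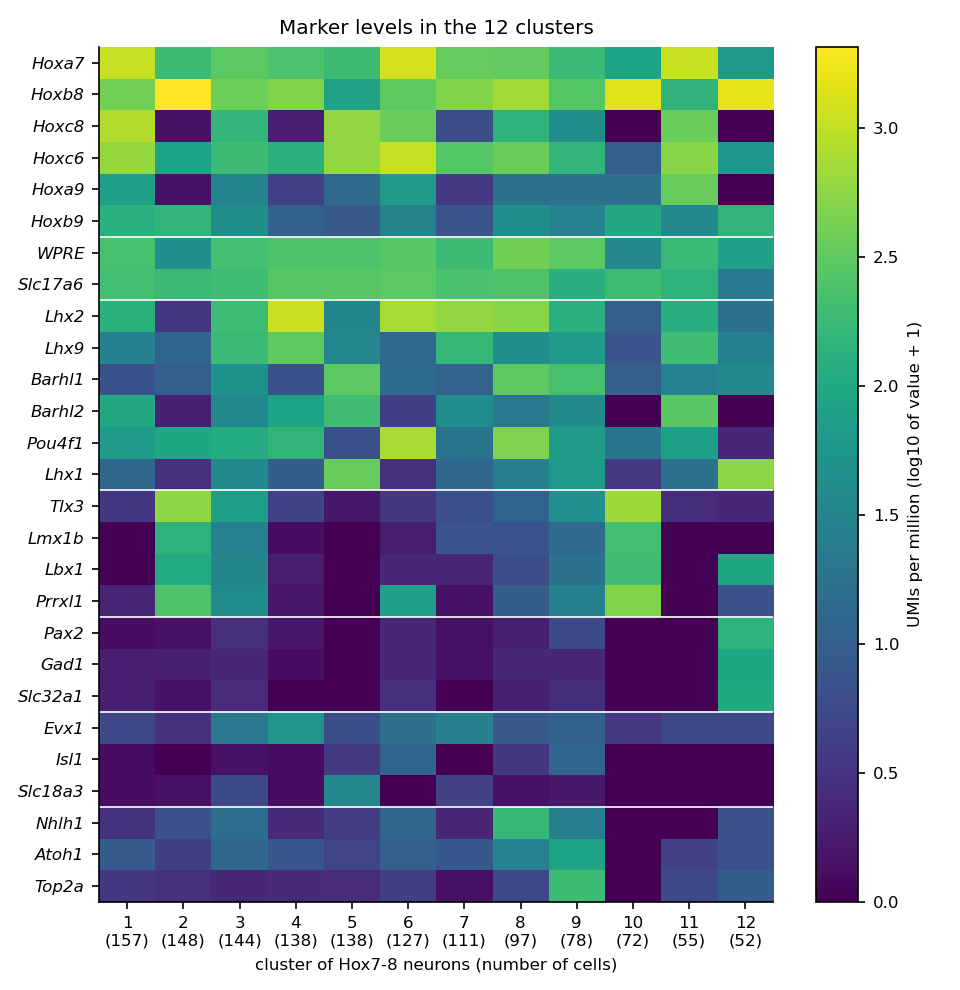
CPM (color, log10 of value + 1) of Hox genes, the WPRE reporter and class markers (rows) in the 12 clusters of Hox7-8 neurons (columns, with cell numbers below). Tlx3, Lmx1b, Lbx1 and Prrxl1 are high together in clusters 2 and 10, Pax2, Gad1 and Slc32a1 in cluster 12, and Hoxc8 is near 0 in these 3 and in cluster 4.

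The reporter separated the clusters in the same way. WPRE was at 45.6, 35.8 and 76.9 CPM in clusters 2, 10 and 12, and between 175 and 398 in the other 9. A UMI of it was found in 44.6% (exact 95% interval 36.4 to 53.0), 25% (15.5 to 36.6) and 48.1% (34.0 to 62.4) of the cells of clusters 2, 10 and 12, at median depths of 13938, 10382 and 12511.5 UMIs, and in 94.0% of the 1045 cells of the other 9, at a median of 20973. In each of the 5 libraries with cells in both, the 3 clusters together (27.5 to 80.5 CPM) lay below the other 9 (225 to 337). As a background, 71 kept cells with at least 5 UMIs of microglia genes, a type outside the Atoh1 lineage, had WPRE at 124 CPM, with a UMI in 46.5% of cells at a median depth of 15433. Those cells were not cleared of doublets, so their WPRE is not a measure of free RNA alone. The share in clusters 2, 10 and 12 together was 40.1% at a median depth of 12350, below that of the microglia-marker cells. Whether the cells of these clusters had carried the label was not tested. By library the microglia-marker cells ran from 36.6 to 230 CPM with 3 to 16 cells each, and in control replicate 3 clusters 2, 10 and 12 together (67.0 CPM) lay above them (36.6). Per library, the Hox7-8 neurons as a whole had WPRE at 241, 222 and 211 CPM in control and 265, 166 and 196 in Atoh1S193A/- replicates, and the Hox4-5 neurons at 390 ± 82.5 (SD, n = 6).

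**Figure D4:**
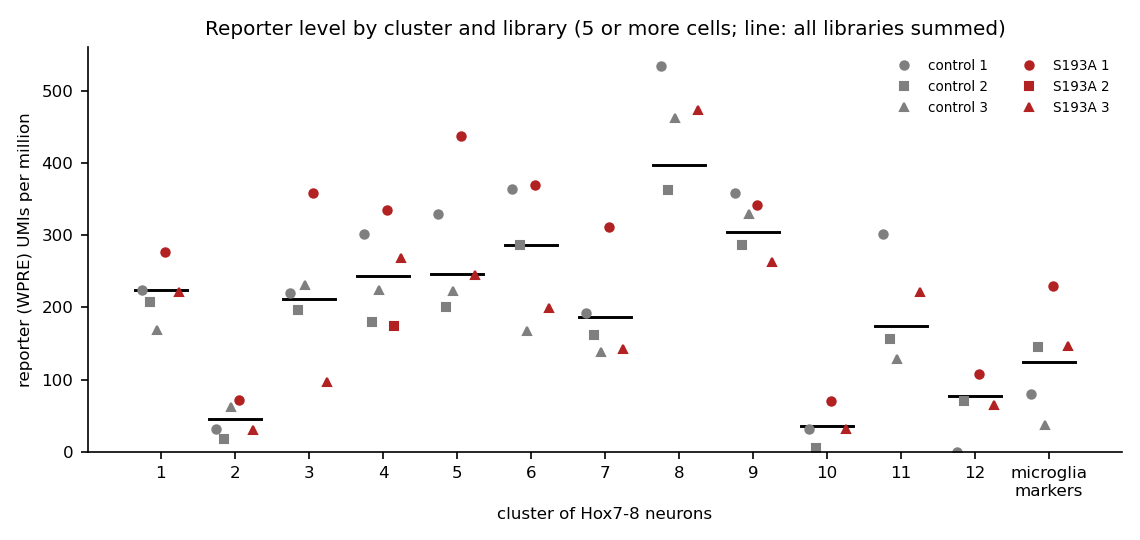
WPRE reporter CPM (vertical axis) in each cluster of Hox7-8 neurons and, at right, in kept cells with microglia markers; each point is a library with at least 5 cells, grey for control and red for Atoh1S193A/-, and lines give the value over all libraries summed. Clusters 2, 10 and 12 lie at 35.8 to 76.9 CPM and the other 9 clusters at 175 to 398.

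Atoh1 itself (chr6:64729125-64731245), the master gene of the lineage, was low in these neurons. It was measured at 23.1, 18.1 and 7.96 CPM in control and 18.4, 4.75 and 12.7 in Atoh1S193A/- replicates 1, 2 and 3, against 27.7 to 53.2 in the Hox4-5 neurons. Within the Hox7-8 neurons, it was highest in the doublet-rich cluster 9 (83.8 CPM) and in cluster 8 (28.4).

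Set against the Hox4-5 neurons of the same libraries, the Hox7-8 neurons had more of Lhx2, Barhl2 and Pou4f1 of the dI1 list. Barhl1, on the dI1 and granule lineage lists, was lower, and Lhx9 of the dI1 list was not called. Pax6, Zic1, Zic2 and Atoh1, factors of the rhombic lip and its granule cell lineage, were lower too. The sums of each population per library were compared by edgeR with the library as a block, leaving out all Hox genes and the genes of the rule. Of 10232 genes tested, 512 (5%) differed by over 1 on the log2 scale at an adjusted p under 0.05, 293 higher (2.86%) and 219 lower (2.14%). Without Atoh1S193A/- replicate 2 there were 513. A gene entered the test with a UMI in 10% of the cells of either population. Of the calls, 148 higher and 150 lower genes passed that limit in both populations, and 145 higher and 69 lower genes only in the population where they were higher, so that the limit itself favored their direction and their values are given as a description. The latter included the dI5 genes, Sox6, Prokr2, Rgs4, Cdh8, Tmem255a and Slit1 among the higher and Fam212b and Cdh20 among the lower. Each log2 difference below is Hox7-8 minus the other population, followed by its standard error.

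Of the dI1 list, Lhx2 (1.85 ± 0.24 SE, edgeR adjusted p = 0.0022), Barhl2 (1.80 ± 0.16) and Pou4f1 (1.38 ± 0.18) were higher, Barhl1 lower (-2.58 ± 0.20) and Lhx9 not called, in 5 of 5 genes tested. Lhx2 was at 334, 433, 257, 239, 1387 and 170 CPM in the 3 control and 3 Atoh1S193A/- libraries of Hox7-8 neurons, and at 104, 129, 70.9, 81.5, 158 and 65.9 in Hox4-5 neurons. The populations did not overlap, and the highest value of all was that of the 9 cells of Atoh1S193A/- replicate 2. Barhl1 was at 97.9, 111, 68.4, 53.8, 0 and 91.4 CPM against 543, 460, 472, 486, 286 and 521, with no overlap either. The dI5 genes Prrxl1 (3.95 ± 0.29), Lbx1 (3.58 ± 0.22), Lmx1b (3.49 ± 0.20) and Tlx3 (2.64 ± 0.23) were among these, found in 16.8% to 22.5% of the Hox7-8 neurons and in 1.3% to 4.19% of the Hox4-5 neurons. Tlx3 was at 181, 37.6, 33.9, 134, 0 and 93.6 CPM in the Hox7-8 neurons, against 3.295 to 21.4 in Hox4-5 neurons. It was highest in the 3 libraries where clusters 2 and 10 made up 27.4% to 32.1% of the cells, the range in the other 3 being 0% to 11.6%. Tlx3 is a leading gene of cluster 2, so this match follows from the clustering and is a description. When the 494 cells of clusters 2, 3, 9, 10 and 12 were left out, these dI5 genes were no longer tested, which follows from the choice of clusters, since Tlx3, Lmx1b and Prrxl1 are among the leading genes of clusters 2 and 10. These clusters were left out of the Hox7-8 neurons alone, here and below, and the compared populations were kept whole. The dI3 genes tested were Tlx3, Prrxl1 and Pou4f1, given above. Of the dI2 genes tested Pou4f1 was higher while Lhx1 (-0.10 ± 0.11) and Lhx5 (-0.16 ± 0.21), which are also in the dI4 list, were not called, the only dI6 gene tested, Bhlhe22, was lower (-1.69 ± 0.19, edgeR adjusted p = 4.8e-04), and neither of 2 V0 genes was called.

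Apart from the class lists, the largest rises included Sox6 (3.1 ± 0.22), an HMG-box factor, Prokr2 (2.90 ± 0.15), the POU factor gene Pou3f1 (2.83 ± 0.11), Rgs4 (2.69 ± 0.52), a regulator of G protein signaling, the cadherin gene Cdh8 (2.67 ± 0.15), and the bZIP factor gene Maf (2.27 ± 0.11). C230004F18Rik (2.29 ± 0.18) and Tmem255a (2.09 ± 0.13) were also among them. All lay higher in each of the 6 libraries, but in Atoh1S193A/- replicate 2 Prokr2 and Tmem255a rested on 3 UMIs each, too few to compare in that library. Sox6 was at 21.8 to 99.7 against 2.63 to 4.21, and it led cluster 4. Without the 5 clusters, Sox6 was at 3.71, Prokr2 at 3.54 and Maf at 2.58.

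Several genes of the granule cell lineage were lower, beside 2.14% lower among all 10232 genes tested. Of 6 genes tested in the granule lineage list, 5 were lower, Barhl1, Pax6 (-2.5 ± 0.11), Zic2 (-2.35 ± 0.18), Zic1 (-1.69 ± 0.23) and Atoh1 (-1.42 ± 0.13), and Neurod1 was not called, although without the 5 clusters it was lower (-1.71 ± 0.22, edgeR adjusted p = 6.3e-04) and Atoh1 moved to -2.18. Of the 7 genes of the precerebellar list 4 are Hox genes and were not tested, and the other 3, Barhl1, Pax6 and Nhlh1, were lower. The list as a whole summed to 793, 750 and 532 CPM in the control libraries of Hox7-8 neurons. In Atoh1S193A/- replicates 1, 2 and 3 it summed to 717, 2284 and 658. The Hox4-5 neurons had 1773 to 2112, so only the 9-cell library, Atoh1S193A/- replicate 2, was not below them. Hoxb4 and Hoxb5, which chose the Hox4-5 neurons, are part of the sum, so it is a description. Pax6, a paired-box factor of the rhombic lip, was at 38.3, 47.2, 37.8, 37.2, 4.75 and 66.8 CPM against 243, 232, 229, 276, 164 and 300 in the Hox4-5 neurons. Zic5 (-2.48 ± 0.11), Zic4 (-2.38 ± 0.10), the Iroquois genes Irx1 (-2.57 ± 0.19) and Irx2 (-2.52 ± 0.24), Prdm8 (-2.41 ± 0.17), Fam212b (-2.65 ± 0.11) and Clybl (-2.54 ± 0.11) were the other largest falls. Genes of newborn neurons were lower in 4 of 8 tested, Nhlh1 (-1.97 ± 0.25), Neurod2 (-1.91 ± 0.27), Nhlh2 (-1.87 ± 0.15) and Atoh1, and none was higher. Neurod6 (-1.09 ± 0.30, adjusted p = 0.0326) was lower as well when the 5 clusters were left out. The nuclear factor I genes Nfib (-1.89 ± 0.34), Nfix (-1.44 ± 0.16) and Nfia (-1.32 ± 0.16), were also lower, and Nfib was at 600.2, 731, 588, 521, 0 and 560 CPM against 1511 to 2275.

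Genes of axon growth differed in a few members, beside 5% called among all 10232 genes tested. Among 21 guidance receptor genes tested of 24, Epha4 (1.55 ± 0.07) and Plxna2 (1.22 ± 0.12) were higher and Robo3 (-2.04 ± 0.22) and the netrin receptor gene Unc5c (-1.88 ± 0.06) lower. Among 11 ligand genes only Slit1 (1.92 ± 0.16), which encodes a repellent for Robo receptors, was called. Of 11 adhesion genes, Cdh8, Cdh13 (1.41 ± 0.16) and Cdh11 (1.26 ± 0.21) were higher, and Cntn2 (-1.58 ± 0.18) and Cdh20 (-1.0 ± 0.18) lower. The neurotrophin receptor gene Ntrk3 was higher (1.20 ± 0.19). Several of these calls depended on the 5 clusters: without them Plxna2 (0.55), Ntrk3 (0.78) and Cdh20 (-0.92) were no longer called, whereas Robo1 (1.09 ± 0.09) became higher and Epha3 (-1.22 ± 0.14) and the ligand gene Sema3c (-1.03 ± 0.30) lower. With all clusters Sema3c passed the detection limit only in the Hox4-5 neurons (10.4% of cells against 8.50%), so its value is a description. Cdh20 was also not called without Atoh1S193A/- replicate 1 (-0.98) or Atoh1S193A/- replicate 3 (-0.86). None of 13 genes of neuronal maturation and none of 9 Hox cofactor genes of the Meis, Pbx and Pknox families was called at this threshold, with medians of -0.04 and 0.06 beside -0.003 over all genes tested, but the cofactor gene Meis1 was lower without the 5 clusters (-1.07 ± 0.06, edgeR adjusted p = 3.9e-10).

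**Figure D5:**
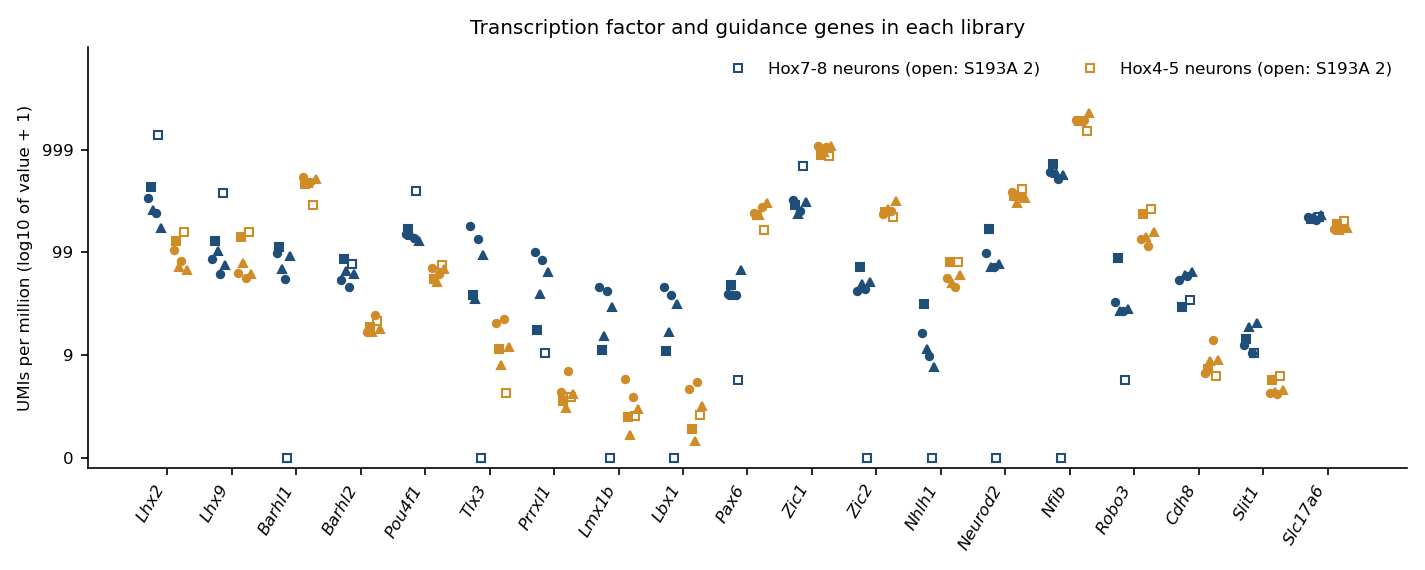
CPM (vertical axis, log10 of value + 1) of 19 genes in each library, blue for Hox7-8 neurons and orange for Hox4-5 neurons; circles, squares and triangles are replicates 1, 2 and 3 of both genotypes, and open squares are Atoh1S193A/- replicate 2. Lhx2, Barhl2, Prrxl1, Cdh8 and Slit1 are higher in every library of Hox7-8 neurons, and Barhl1, Pax6 and Nfib are lower. In Atoh1S193A/- replicate 2, Prrxl1 and Slit1 rest on 2 UMIs each in the Hox7-8 neurons, too few to compare in that library.

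Foxb1-positive Hox7-8 neurons met the same rule but had at least 1 UMI of Foxb1, a forkhead factor (697 cells). Hoxc6, which the rule did not use, was at 107 ± 43.4 CPM (SD, n = 6) in them. Of 10450 genes, 179 (1.71%) differed, 83 higher (0.794%) and 96 lower (0.919%) in the Foxb1-negative neurons, and without Atoh1S193A/- replicate 2 there were 187. The neuropeptide gene Gal was at 15.5, 12.7, 16.2, 15.9, 0 and 23.1 CPM in them and at 316, 134, 292, 298, 100.2 and 342 in the Foxb1-positive neurons, a log2 difference of -3.97 ± 0.13 (edgeR adjusted p = 1.1e-07). Nefl (-1.61 ± 0.15) and Nefm (-1.47 ± 0.18), which encode neurofilament chains, were the only 2 of 13 maturation genes called. The V0 factor gene Evx1 (-2.0 ± 0.22) and Evx1os (-2.19 ± 0.13), annotated as antisense to it, were lower, and the split of reads between the pair is uncertain, since the sources used here do not state how strand was treated in counting.

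The other named falls were Tpbg (-2.11 ± 0.10), Zbtb7c (-1.98 ± 0.13), Btbd3 (-1.95 ± 0.09), Ramp3 (-1.87 ± 0.21), Klhl5 (-1.86 ± 0.17), S100a10 (-1.83 ± 0.18) and Fign (-1.77 ± 0.25). B230323A14Rik lay lowest of all (-5.78 ± 0.21), but it overlaps Foxb1 on the other strand (chr9:69758740-69830845), so it is tied to the rule and given as a description. Reln, which encodes the extracellular protein reelin, was at 138 to 182 CPM in the 6 libraries of Hox7-8 neurons and 34.9 to 62.7 in the Foxb1-positive ones (1.55 ± 0.07, edgeR adjusted p = 3.5e-12). Ntrk3 (1.49 ± 0.13), the GABA receptor gene Gabra2 (1.55 ± 0.15), Lingo2 (1.45 ± 0.12), Flrt2 (1.46 ± 0.19), Ptpre (1.91 ± 0.25), Tox (1.62 ± 0.30), Bcl11a (1.41 ± 0.24), Plxna2 (1.85 ± 0.35) and Sox6 (2.31 ± 0.41) were higher, but Bcl11a, Plxna2 and Sox6 were each no longer called without control replicate 1, control replicate 3, Atoh1S193A/- replicate 1 or Atoh1S193A/- replicate 3 (edgeR adjusted p from 0.0577 to 0.108), and Plxna2 also not without Atoh1S193A/- replicate 2 (0.0627). None of 5 dI1 genes was called, with a median of 0.03, whereas Lhx1 (2.5 ± 0.32) was higher.

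Of the 83 genes higher than in the Foxb1-positive neurons, 40 passed the detection limit only in the Hox7-8 neurons, and of the 96 lower ones 42 only in the Foxb1-positive neurons. Lhx1 and Sox6 were among the former and are given as a description, and so were the dI5 genes Tlx3 (3.37), Lmx1b (2.90), Lbx1 (2.75) and Prrxl1, found in 2.87% to 4.45% of the Foxb1-positive neurons. Tlx3 was no longer called without control replicate 1 (edgeR adjusted p = 0.101), control replicate 2 (0.114), Atoh1S193A/- replicate 1 (0.116) or Atoh1S193A/- replicate 3 (0.0979), and Lbx1 not without control replicate 2 (0.0934), control replicate 3 (0.089) or Atoh1S193A/- replicate 1 (0.0697). Without the 5 clusters the dI5 genes could not be tested, the dI1 gene Barhl2 was higher (1.5 ± 0.26, edgeR adjusted p = 0.0196), Fign moved from -1.77 to -3.23 and Plxna2 from 1.85 to 1.23.

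Hox-negative neurons, with no UMI of any gene of the 4 Hox clusters and the same other limits (8643 cells), stood for the rostral hindbrain. Of 10045 genes, 266 (2.65%) differed, 171 higher (1.7%) and 95 lower (0.946%) in Hox7-8 neurons, and without Atoh1S193A/- replicate 2 there were 259. Pou4f1, a POU factor gene of dI1, dI2 and dI3 neurons, was at 149, 169, 148, 137, 394 and 128 CPM in Hox7-8 neurons and 6.89, 14.7, 7.53, 10.7, 11.6 and 7.97 in the Hox-negative ones (4.06 ± 0.22). En2 (-2.78 ± 0.12) and En1 (-2.94 ± 0.17) mark the isthmic territory, and En2 stood at 10.8, 11.97, 10.6, 4.96, 0 and 11.7 CPM against 63.6 to 76.6. These 3 genes are given as a description, since Pou4f1 passed the detection limit only in the Hox7-8 neurons (42.9% of cells against 4.67%) and En1 and En2 only in the Hox-negative neurons (30.2% and 40.6% against 6.15% and 8.58%).

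Here 107 of the 171 higher genes passed the detection limit only in the Hox7-8 neurons and 35 of the 95 lower ones only in the Hox-negative neurons, so their direction was favored by the limit and their values are a description. Among them were Pou4f1, Barhl2, Lhx1, the dI5 genes (found in 0.995% to 1.99% of the Hox-negative neurons), and En1 and En2. Of the dI1 list Barhl2 (2.43 ± 0.17), Lhx2 (1.53 ± 0.33) and Pou4f1 were higher and Lhx9 lower (-1.64 ± 0.22), and Lhx1 was higher (2.98 ± 0.27). Of the granule lineage list Neurod1 (-2.39 ± 0.20), En2, Pax6 (-1.20 ± 0.25) and Zic2 (-1.19 ± 0.28) were lower. Prrxl1 (5.00 ± 0.43), the gastrin-releasing peptide gene Grp (3.75 ± 0.54), Sox6 (3.73 ± 0.26), Prokr2 (3.29 ± 0.17), Ramp3 (2.84 ± 0.40), Rgs4 (2.65 ± 0.46) and the calcium-binding protein gene Cabp1 (2.56 ± 0.15) made up most of the largest rises, and each passed the limit only in the Hox7-8 neurons. Gm15050 (4.99 ± 0.17) lies within the HoxA cluster (chr6:52172881-52174059) and is given as a description, since the Hox-negative neurons were chosen on that locus. The largest falls were C1ql4 (-3.44 ± 0.43), Prph (-3.13 ± 0.55), Mctp1 (-2.96 ± 0.13), the calretinin gene Calb2 (-2.94 ± 0.41), the forkhead gene Foxp2 (-2.93 ± 0.16), Irx4 (-2.91 ± 0.29), Gng8 (-2.83 ± 0.25) and Irx3 (-2.78 ± 0.14), of which Foxp2 alone passed it in both populations. Without the 5 clusters the dI5 genes could not be tested, Pax6 moved to -2.33 and En2 to -4.85. Since cells were left out of the Hox7-8 neurons alone, these shifts are a description. When 1 library was left out, Lhx2 was not called without control replicate 1, 2 or 3 or Atoh1S193A/- replicate 1 (edgeR adjusted p from 0.0692 to 0.0804), Pax6 not without control replicate 1 or 3 or Atoh1S193A/- replicate 3 (0.0563 to 0.0692), and Zic2 not without control replicate 1 or 3 or Atoh1S193A/- replicate 1 or 3 (0.0927 to 0.106). Prph was not called without control replicate 2 (edgeR adjusted p = 0.0665) or Atoh1S193A/- replicate 3 (0.0527).

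Markers of other cell types were summed as a check of the neurons. The summed level of 4 microglia genes was 0 to 0.59 CPM in the libraries of Hox7-8 neurons, with 1 of the 4 at 0 in all, and that of 2 endothelial genes 0 to 1.98. Of the motor neuron list, Mnx1 was at 0 in every library and the 6 genes summed to 0 to 17.1. The 4 glial genes summed to 4.75 to 115 CPM, against 34.7 to 81.7 in the Hox4-5 neurons, and the blood genes to 0 to 40.9. The 9 progenitor genes summed to 90.2 to 387 CPM against 492 to 663 in the Hox4-5 neurons. Against the latter, without the 5 clusters, the progenitor genes Sox2 (-2.89 ± 0.39) and Hes5 (-2.01 ± 0.21) and the glial genes Fabp7 (-1.38 ± 0.23) and Slc1a3 (-3.46 ± 0.16) were lower, whereas with them Sox2, Hes5 and Fabp7 had not been called and Slc1a3 was at -1.93. Sox2 and Slc1a3 passed the detection limit only in the Hox4-5 neurons. The doublet-rich clusters were left out of the Hox7-8 neurons alone, which favored lower values in them, so these differences are a description. The part of other cell types in the differences was not tested.

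Between the genotypes, no gene of the Hox7-8 neurons passed the test. Of 10233 genes compared by edgeR over 3 control and 3 Atoh1S193A/- libraries, 0 (0%) were called at an adjusted p under 0.05 with a change over 0.25 on the log2 scale. An unadjusted p under 0.05 was reached by 265, DESeq2 called 0 (62 at an unadjusted p under 0.05), and the fit with littermate pairs as a block called 0 (296). Without Atoh1S193A/- replicate 2 edgeR called 0 (397). The 5 genes of smallest p, all higher in Atoh1S193A/- neurons and none past the threshold, were Lhx5, Pcp4l1, Gm27199, Epha4 and Slc6a15. Gm27199, annotated as antisense, overlaps the start of Lhx5 (chr5:120431699-120441223), so the split of reads between the pair is uncertain. Lhx5 and Pcp4l1 were found in 7.37% and 8.50% of all Hox7-8 neurons, so each passed the limit of 10% in 1 genotype alone. Gm27199 had 11, 38 and 5 UMIs in the 199, 570 and 164 control neurons, too few to pass there. The values of Lhx5, Pcp4l1 and Gm27199 are given as a description.

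Lhx5, a LIM factor gene of inhibitory and dI2 neurons, was at 4.66, 3.17 and 2.95 CPM in control and 15.6, 0 and 12.2 in Atoh1S193A/- libraries (1.87 ± 0.34 SE, edgeR adjusted p = 0.46). The 2 higher values belonged to the libraries with the largest share of the inhibitory-like cluster 12, where Lhx5 stood at 72.7 CPM. That cluster made up 9.18% and 6.15% of their Hox7-8 neurons, 1.93% to 4.02% in control and 0% in Atoh1S193A/- replicate 2. Without clusters 2, 3, 9, 10 and 12 the log2 change was 2.06 and, as with them, was not called. The part of cluster 12 in the change was not tested. Pcp4l1 was at 5.64, 6.82 and 5.90 against 15.4, 4.75 and 21.1 CPM (1.44 ± 0.26, edgeR adjusted p = 0.46). Epha4, a receptor for ephrins in axon guidance, was at 77.0, 70.5 and 88.8 in control and 119, 114 and 121 in Atoh1S193A/- neurons, so the groups did not overlap, but its change of 0.58 ± 0.13 had an edgeR adjusted p near 1. Slc6a15, an amino acid transporter gene, was at 13.7, 13.1 and 15.3 against 22.6, 14.2 and 37.0 (1.02 ± 0.23), and Gm27199 at 1.47 to 3.01 against 0 to 11.2 (1.86 ± 0.36).

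An alternative added after the data had been seen left out pair 2, which holds the 9-cell library and the control with the most cells. It kept the pairs as a block and compared 2 control with 2 Atoh1S193A/- libraries. With so few, the spread of each gene rested largely on other genes, and the p-values are given as a description. It gave 24 calls, 14 higher and 10 lower. Lhx5, Pcp4l1 and Gm27199 (edgeR adjusted p = 0.0075 each), Epha4 and Slc6a15 (0.035 each) were among them, and these 5 were also called when no detection filter was used (4.8e-05 to 0.028). Because of the detection limit and the overlap given above, Lhx5, Pcp4l1 and Gm27199 are a description here too. When the 5 clusters were left out as well as pair 2, Lhx5 was at 2.02, Gm27199 at 2.09, Epha4 at 0.51 and Slc6a15 at 0.55, none of them called (adjusted p from 0.0831 to 0.873), and Pcp4l1 could not be tested. Crabp1, named here after its values were seen, encodes a protein that binds retinoic acid and had the smallest p of the 24. It was at 553, 1076 and 867 CPM in control and 274, 9.497 and 477 in Atoh1S193A/- libraries. The groups did not overlap, and the log2 change was -0.97 ± 0.10 in that fit (edgeR adjusted p = 3.3e-05) and -0.98 when clusters 2, 3, 9, 10 and 12 were also left out (adjusted p = 0.0002), but over all 6 libraries it was not called (-1.53, adjusted p = 1). Among the 24 genes, Crabp1, Pou2f2 (-0.61 ± 0.11), Alcam (0.55 ± 0.10) and Pbx3 (0.48 ± 0.09) were also called when the 5 clusters were left out, whereas Lhx2 (-0.57 ± 0.09), the dI1 factor, was not (-0.38, adjusted p = 0.19). Genes of the dissociation response summed to 495, 237 and 275.5 CPM in control and 489, 575 and 401 in Atoh1S193A/- neurons, and their part was not tested.

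Whether the genotype effect differed between Hox7-8 and Hox4-5 neurons was tested as an interaction in edgeR. None of 10482 genes (0%) passed an adjusted p of 0.05, 310 had an unadjusted p under 0.05, and DESeq2 called 1 (93 at an unadjusted p under 0.05). That gene was Kitl, the ligand of the Kit receptor, with a log2 term of -1.16 ± 0.18 in edgeR (adjusted p = 0.13), named here after its values were seen. Without Atoh1S193A/- replicate 3 edgeR called 4, all hemoglobin genes (Hbb-bt, Hbb-bs, Hba-a1 and Hba-a2, also named after the fact). Hbb-bs stood at 592 CPM in the Hox4-5 neurons of Atoh1S193A/- replicate 1 against 0.22 to 12.5 in the other 5 libraries, and at 0 to 18.4 in the Hox7-8 neurons. The part of that library in the calls was not tested.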

How the data were processed

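Single-cell 3' libraries (10x Genomics v3.1) were made from sorted hindbrain cells, 1 embryo per library. The deposited matrices hold UMI counts per gene and cell, which the authors made with Cell Ranger on mm10 with the WPRE sequence added. The labels name version 5.0.1, while the file headers give 3.1.0 for control replicates 1 and 2 and 5.0.1 for the other E14.5 libraries. Total counts ran from 121762137 to 193872318 UMIs per library over 31054 genes, and the number of embryos limits the precision of each comparison. The 8 libraries of other stages were not used. Hox7-8 neurons, the gene lists and the tests were chosen with earlier results of these data known.

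Cells with at least 1000 genes and under 10% mitochondrial UMIs were kept, and doublets were scored in each library with Scrublet (scanpy 1.11.5). The highest 7.5% of scores were marked, which took in 163 of the 1317 Hox7-8 neurons, and these were kept except in 1 alternative. UMIs were summed per library and population and tested with edgeR 4.0.16 (quasi-likelihood, TMM, Benjamini-Hochberg adjustment, R 4.3.3) for genes detected in no less than 10% of the cells on either side. A call needed an adjusted p under 0.05 and a log2 change over 0.25 between genotypes or over 1 between populations, the latter with the library as a block. Hox genes were not tested between populations or in the interaction. Between genotypes, the Hox genes outside the rule that passed the detection limit were tested, and none was called. DESeq2 1.42.0 was an alternative. Shares were compared by exact permutation over embryos. Clusters came from Leiden clustering (leidenalg 0.10.2, resolution 0.5, 2000 variable genes, 30 components, 15 neighbors) without the genes of the rule. A cluster's leading genes were those with the largest ratio of its CPM + 1 to the mean CPM + 1 of the other clusters, detected in 25% of its cells or more. The scripts were tested on simulated data.

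Per the labels each mutant was collected with a littermate control, so libraries of the same number were taken as littermate pairs, although the labels do not say that the number marks the litter. The deviations of same-numbered libraries from their genotype means correlated at 0.243, 0.128 and 0.0555 in pairs 1, 2 and 3 over 10233 genes.

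The genes named for each population comparison were the 10 largest rises and the 10 largest falls among called genes that lay on the same side in all 6 libraries and reached 20 CPM in the higher population. For the genotype comparison, with under 5 calls, they were the 5 of smallest p, and called members of 33 gene lists were named as well. Some genes that met these rules are not reported here. Positions are from GENCODE M21 on GRCm38.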

Additional observations from a re-analysis of the deposited data

How the results depend on the processing

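The share of Hox7-8 neurons kept its sign under every alternative run. No call was possible, since its permutation p cannot fall below 0.1 with these numbers of embryos. Leaving out 1 library at a time put the difference between -3.21 and -0.834 points, and the replicate block, a sign-flip test over the 3 littermate pairs, gave -2.18 points (exact p = 0.5, where 0.25 is the smallest possible). Between genotypes, the fit with the replicate block called 0 genes, as the fit without it did, so pairing alone changed no call. Without the detection filter 68 genes were called (40 higher, 28 lower). The choices that gave 1 call were edgeR's filterByExpr (Gm12688), removal of cells with high doublet scores (Irx5), an equal number of cells per library (Jun) and leaving out control replicate 3 (AC160336.1), all named after the fact, and leaving out 1 library gave 0 to 1 calls. Without pair 2, with the replicate block, 24 genes were called over 2 libraries of each genotype. There were 39 when cells were also required to have a WPRE UMI, and 7 when clusters 2, 3, 9, 10 and 12 were also left out. These 3 alternatives were chosen after seeing the data. The cause was not tested. For the difference of genotype effects, DESeq2 called 1 gene, and leaving out 1 library gave 0 to 4.

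Without the detection filter 1172, 392 and 899 genes differed from the Hox4-5, Foxb1-positive and Hox-negative neurons, in place of 512, 179 and 266. The genes tested then numbered 22331, 20700 and 22916 in place of 10232, 10450 and 10045. Of the main calls 483, 174 and 258 were kept, and the cause of the change was not tested. The counts of called genes without 1 library were 480 to 593, 162 to 238 and 256 to 277. Without the 5 clusters, left out of the Hox7-8 neurons alone (added after seeing the data), they were 746, 240 and 392. Of the values of single named genes and called list genes under the alternatives, 779 of 790, 461 of 491 and 603 of 646 kept their direction and call, and the others kept their direction only. Genes that could not be tested under an alternative, such as the dI5 genes without the 5 clusters, are not in these counts. Besides the losses given in the report, Th and Zfhx3 (Hox4-5), and Nfix, Olig2, Rgs4, Pknox1 and Cdh8 (Hox-negative), which lost the call under 1 or 2 settings that kept all libraries, and Hrk (Foxb1-positive), Epha3 and Hbb-bs (Hox-negative), which also lost it without 1 library, were among those that changed. Clustering at resolutions 0.3 and 1.0 gave 8 and 17 clusters. With 9 cells in 1 Atoh1S193A/- library, levels near 14.2 CPM there rest on 3 counts, and genes at that level could not be compared in it.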
